A study of Mus musculus with 13 samples.

Results

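Fn1-high excitatory nuclei of the mouse hippocampal formation were examined in single-nucleus RNA-seq libraries of whole frozen hippocampus. They were chosen by unique molecular identifiers (UMIs, each a counted RNA molecule) of a few genes. Each had 500 genes or more, no more than 5% of its UMIs from mitochondrial genes, at least 3 UMIs of Fn1 (fibronectin) and at least 1 UMI of Slc17a7 (the vesicular glutamate transporter VGLUT1). It had fewer than 2 UMIs of the inhibitory genes Gad1 and Gad2 together, none of the granule cell gene Prox1, and none of the 4 vascular genes Flt1, Ptprb, Pdgfrb and Col1a2. The rule found 834 nuclei, which were 0.791% of the 105427 nuclei that passed the first filters. The working name for them was subicular Fn1 excitatory neurons, and some genes used to mark subicular neurons were higher in them and others were not, as described below. The 13 libraries came from female mice of a hybrid strain that the design text names C3B6F1 and the sample labels C3HB6F1. Young mice fed ad libitum were 5 months old (n = 3), and all other mice were 24 months old. These were fed ad libitum (n = 3; replicates 1, 2 and 4), placed on acute dietary restriction that began at 20 months (n = 3), or placed on long-term dietary restriction that began at 5 months (n = 4). The labels do not state that each library was a separate animal, so p-values measure the spread between these samples.

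The subiculum is the output region next to CA1, and its principal neurons send the signals of the hippocampus to cortex, thalamus and hypothalamus. Many of its pyramidal neurons fire in bursts, and neurons there are known to differ by projection target and by molecular type. Fibronectin is a secreted matrix glycoprotein that binds integrins; in the brain it is best known from blood vessels, and Fn1 is also used as a marker of subicular pyramidal neurons. Slc17a6 (VGLUT2) and Nts (the peptide neurotensin) are further genes used to mark subicular neurons, while Fibcd1 marks CA1 and Hs3st4 and Foxp2 mark deep cortical layers.

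The libraries held 742437104 UMIs in all, 38546292 to 80538090 each, in 3516 to 12336 retained nuclei. The 4 libraries numbered 1, of which each group had 1, contributed 468 of the 834 nuclei and the other 9 contributed 366. Acute restriction replicate 2 contributed 3 nuclei and was left out of all fits of gene expression, which used the 12 mice with at least 20 nuclei. None of the 834 barcodes occurred in another library as a member, although 2712 retained barcodes of the series occurred in more than 1 library. The Fn1-high nuclei had a median of 12152 UMIs, compared with 8186.5 in other excitatory nuclei without Fn1. Marker genes of astrocytes (6 genes, none at 0 over all nuclei) summed to 136 to 294 CPM (a gene's share of all UMIs in a mouse's summed nuclei, on the usual counts-per-M scale) in young mice, 269 to 555 in old ad libitum mice, 192 to 302 under acute and 171 to 422 under long-term restriction. Marker genes of microglia (6 genes, none at 0) summed to 53.2 to 231 CPM in young and 32.2 to 60.4 CPM in old ad libitum mice. The 5 vascular markers that the rule did not use summed to at most 13.1 CPM in any mouse, and Cldn5, Vtn and Col3a1 had a median of 0 CPM. Without the 70 Fn1-high nuclei that held 2 or more glial UMIs, the 4 contrasts below gave the same counts of called genes (0, 0, 1 and 0), and Cdc14a still passed under acute restriction (edgeR with Benjamini-Hochberg adjusted p = 0.0203).

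Fn1 itself (chr1:71585520-71653200 of mm10, minus strand) set the rule, so its values are a description. Its summed level was 437, 703 and 463 CPM in the young mice. It was 334, 453 and 531 CPM in old ad libitum mice, 362, 297 and 411 CPM under acute restriction, and 373, 413, 489 and 444 CPM under long-term restriction. The rule asked for 3 Fn1 UMIs whatever the depth, so a shallow nucleus needed a higher CPM to enter. Median UMIs per Fn1-high nucleus ran from 6570 in young replicate 2, the mouse at 703 CPM, to 20440 in old ad libitum replicate 1. The 297 CPM of acute restriction replicate 2 rests on 3 nuclei. Groups are thus not compared for Fn1. Of the members, 239 had exactly 3 Fn1 UMIs, 422 had at least 5 and 71 at least 10. Over pooled nuclei Fn1 reached 409 CPM in the members. It stood at 587 CPM in 369 nuclei with endothelial genes, 66.6 CPM in 62 nuclei with fibroblast genes, 2.44 CPM in granule-type and 0.861 CPM in inhibitory-type nuclei. Of the gates measured, the level in nuclei with endothelial genes was thus above that in the members.

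Members just inside the threshold (3 Fn1 UMIs) and excitatory nuclei just outside it (2 Fn1 UMIs, 344 nuclei) differed in degree for several genes. Vat1l, a vesicle membrane protein gene, stood at 71.3 and 23.5 CPM, Stac, an adaptor of calcium channels, at 131 and 42.7 CPM, and Gm6260 at 47.3 and 24.4 CPM. Tshz2, a transcription factor gene, was at 1413 and 1440 CPM and Cntn6, a contactin adhesion gene, at 453 and 456 CPM on the 2 sides. Slc17a6 was at 28.4 and 34.03 CPM.

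The label was checked on genes the rule did not use. Nts had a median of 11.2 CPM over the 12 mice (3.18 to 33.1 CPM), against 0.772 CPM in other excitatory nuclei, 1.89 CPM in deep-layer-type nuclei (Hs3st4 and Foxp2 present, Fn1 absent) and 0 CPM in CA1-type nuclei (Fibcd1 present, Fn1 absent). It was higher in 12 of 12 mice than in other excitatory nuclei. Nts UMIs were found in 15.6% of Fn1-high nuclei (exact 95% interval 13.2% to 18.2%, counting error only), in 0.725% of other excitatory nuclei and in 0.326% of granule-type nuclei, whose median depth was 7839 UMIs. With each nucleus thinned to 4000 UMIs these shares were 5.88%, 0.412% and 0.113%. Slc17a6 had a median of 34.6 CPM (3.18 to 65.8 CPM) against 10.4 CPM in other excitatory nuclei and was higher in 11 of 12 mice. It was seen in 29.5% of Fn1-high nuclei (12.005% after thinning), 6.65% of other excitatory nuclei (3.92% after thinning) and 6.999% of deep-layer-type nuclei (3.05% after thinning). In granule-type nuclei the shares were 0.978% and, thinned, 0.404%. Cntn6 (382 CPM, range 184 to 706) lay above 6.12 CPM in CA1-type and 186 CPM in deep-layer-type nuclei. Fibcd1 was at 2.76 CPM, compared with 213 CPM in CA1-type nuclei, whose gate asked for Fibcd1. The 6 listed CA1 genes, Fibcd1 among them, summed to a median of 485 CPM in Fn1-high nuclei. Their sum was 976 CPM in CA1-type, 339 CPM in deep-layer-type and 540 CPM in other excitatory nuclei.

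Other listed subicular genes were low or shared. Dlk1 was at 1.05 CPM, Teddm3 at 2.99 CPM and Tpbg at 3.49 CPM. Rorb stood at 95.6 CPM, above other excitatory nuclei (50.4 CPM) in 10 of 12 mice and below the 219 CPM of deep-layer-type nuclei. In the clustering described below, Rorb was at 604 CPM in the 136 nuclei of cluster 1 and 18.9 CPM in the remaining members. Tshz2, used to mark near-projecting cortical neurons, was at 1446 CPM (1200 to 1955) against 643 CPM in other excitatory nuclei, in 12 of 12 mice, and UMIs of it were in 92.2% of nuclei. Hs3st4 UMIs were in 34.4% of the nuclei at a level of 660 CPM, against 2824 CPM in deep-layer-type nuclei. Of all Hs3st4 UMIs in the members 76.3% were in cluster 1, at 3967 CPM there and 192 CPM in the remaining members. Such UMIs were also in 60.8% of granule-type, 61.9% of other excitatory and 90.4% of CA1-type nuclei, and in 13.99% of inhibitory nuclei. With each nucleus thinned to 4000 UMIs the shares were 29.1% in Fn1-high, 46.0% in granule-type and 58.5% in other excitatory nuclei. Since Nts was seen in 15.6% of the nuclei and Dlk1, Teddm3 and Tpbg were low, the nuclei are called Fn1-high here.

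The genes that set Fn1-high nuclei apart were named by the median over mice of the within-mouse log2 ratio to other excitatory nuclei without Fn1, with 1 CPM added to both. All are a description with no test. Of the 9268 genes expressed enough for a fit, 6.39% were higher and 7.54% lower than in other excitatory nuclei in 12 of 12 mice, and the 25 named as highest had to be. Gm6260, a predicted gene, led at 82.8 CPM (52.1 to 140) against 3.80 CPM, a log2 ratio of 3.85 ± 0.61 (SD, n = 12). Rab38, a small GTPase of vesicle traffic, was at 53.0 CPM against 4.92 CPM (3.19 ± 0.44). Kctd8, an auxiliary subunit of GABA-B receptors, was at 377 CPM against 49.7 CPM (2.92 ± 0.73), which spread more widely over mice. 9330185C12Rik spread most of those named here, from 6.36 to 215 CPM.

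Adamts2, which trims procollagen, was at 174 CPM (125 to 212) against 27.8 CPM, and Cntn6 had a log2 ratio of 2.45 ± 0.49. Tenm3, a teneurin that guides the wiring between CA1 and subiculum, was at 3672 CPM (2000 to 4989) against 828 CPM in other excitatory, 1385 CPM in CA1-type and 1190 CPM in deep-layer-type nuclei. All 12 mice showed the higher Tenm3 level against each of these populations. Ptprt, a receptor phosphatase with adhesive repeats, was at 1103 CPM against 37.9 CPM in CA1-type nuclei. Ligand and receptor genes were also among them: Angpt1, the angiopoietin ligand, at 81.6 CPM (22.8 to 142) against 17.5 CPM, and Rxfp1, the relaxin receptor, at 232 CPM (166 to 277) against 47.5 CPM. Etv5 and Bcl6, both transcription factor genes, stood 2.00 and 1.92 above other excitatory nuclei on the log2 scale.

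On the low side, Zbtb20, a transcription factor gene of hippocampal pyramidal identity, was at 157 CPM (102 to 263) against 1764 CPM in other excitatory and 2164 CPM in CA1-type nuclei, a log2 ratio to the former of -3.42 ± 0.40 (SD, n = 12). Zfhx4 was at 3.16 CPM against 63.7 CPM, Smoc2, a matrix protein gene, at 3.35 CPM against 64.5 CPM, and Thsd7b at 25.3 CPM against 420 CPM. Zbtb20 was also lower than in deep-layer-type nuclei (493 CPM) in every mouse.

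**Figure D1:**
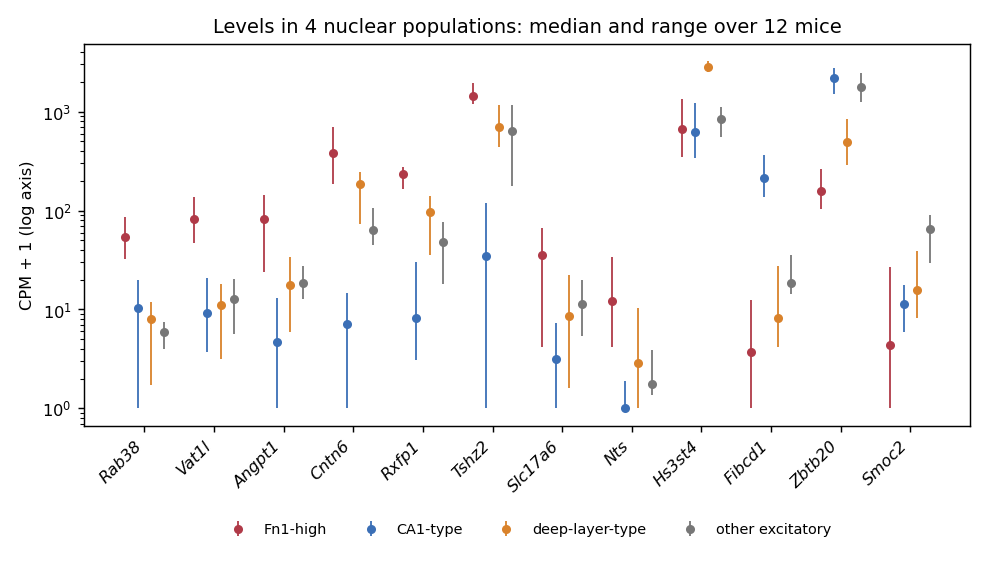
Levels of 12 genes in Fn1-high nuclei and 3 reference populations of excitatory nuclei, as CPM + 1 on a log axis, with points at the median and bars over the range of 12 mice. Rab38 and Cntn6 stand highest in the Fn1-high nuclei, and Zbtb20 stands at 157 CPM there against 1764 CPM in other excitatory nuclei.

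Gene lists for functions of these neurons gave further levels, described by how many genes were consistently higher or lower than in CA1-type nuclei. Over all 9268 genes 6.68% were higher and 5.95% lower in 12 of 12 mice. Of 22 genes of axon guidance and synaptic adhesion, 10 were higher and 3 lower. Lrrtm4, a postsynaptic adhesion gene, was at 6617 CPM against 960 CPM in CA1-type, and Cntn4 at 2376 CPM against 442 CPM. Cntn5 stood at 2149 CPM against 314 CPM and Unc5c, a netrin receptor, at 1433 CPM against 634 CPM. Sema6d, a semaphorin, was at 501 CPM against 56.6 CPM. These 5 genes were also higher than in other excitatory nuclei and in deep-layer-type nuclei in 12 of 12 mice, where 4.76% of all genes were higher and 5.51% lower than in the latter.

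Of 20 glutamate receptor and transporter genes, 6 were higher and 5 lower than in CA1-type nuclei. Grm8, an inhibitory metabotropic receptor, was at 973 CPM against 72.1 CPM, while it was close to the 1154 CPM of deep-layer-type nuclei. Grik4, a kainate receptor subunit best known from CA3, was at 35.1 CPM against 201 CPM. Of 20 channel genes of bursting and pacing, 2 were higher and 8 lower. Cacna1h, a T-type calcium channel gene, was at 47.8 CPM against 27.7 CPM. Kcnd2, an A-type potassium channel gene, was at 2331 CPM against 4114 CPM, and Ano3 at 91.6 CPM against 442 CPM.

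Partners of fibronectin were described in the same way. Of 12 listed receptors and partners, 6 passed the filter on low counts, 0 were higher and 2 were lower than in CA1-type nuclei in 12 of 12 mice. Itga8, an integrin subunit that binds fibronectin, was at 96.0 CPM against 312 CPM. Of 12 genes of the neuronal matrix, 4 passed the filter and 2 were lower, among them Tnr (tenascin-R) at 280 CPM against 817 CPM. Since genes pass the filter by being expressed in the Fn1-high nuclei, these counts leave out genes that are silent there. Nr4a2, listed with the immediate early genes and also a marker of cortical and subicular neurons, was at 108 CPM against 20.8 CPM.

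Clustering of the 834 nuclei on their own divided them into 10 clusters, numbered 0 to 9 by size. The clusters were defined on these genes, so the values are a description. Clusters 0, 2, 4 and 9 held 423 nuclei, 50.7% of the members, and 85.5% of all Nts UMIs. In them Nts was at 28.5 CPM and seen in 25.5% of nuclei, and Slc17a6 at 60.02 CPM with 73.5% of its UMIs. Most of the Nts UMIs came from clusters 0 and 2, with 51.1% and 27.96% of all of them. Cluster 4 had Nts at 3.35 CPM (4 UMIs, in 4.94% of its nuclei), below the 15.2 CPM of cluster 5 (in 18.2%). Its Slc17a6 level of 28.5 CPM was below that of clusters 1 (35.3 CPM) and 7 (48.5 CPM), and its Hs3st4 level was 804 CPM. Cluster 0 (202 nuclei) was led by Npsr1, the neuropeptide S receptor (309 CPM against 54.3 in the remaining members), Cdh7, Angpt1 and Vat1l. Cluster 2 (113 nuclei) was led by Sntg2, Grik1, a kainate receptor subunit (480 against 90.1 CPM), and Stac. Cluster 4 (81 nuclei) was led by Adra1a, an adrenergic receptor (107 against 3.61 CPM), Dpyd and Slit2. Cluster 9 (27 nuclei) was led by long non-coding RNAs and held no nucleus from a library numbered 1.

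The remaining clusters carried other gene programmes. Cluster 1 (136 nuclei) had Kcnh8 at 457 against 5.06 CPM, Rorb at 604 against 18.9 CPM and Hs3st4 at 3967 against 192 CPM. Cluster 3 (87 nuclei, from 8 mice) had Zfp804b at 2096 against 24.2 CPM, Plch1 and the hyaluronan receptor gene Cd44. Cluster 6 (49 nuclei) had Lef1, Cpa6 and Reln, the gene of reelin (603 against 13.4 CPM), and Slc1a3, an astrocyte glutamate transporter gene, at 153 against 6.01 CPM. Clusters 5, 7 and 8 were led by C1qtnf7, by Tcf7l1 and Meis2, and by Bche and Trps1. None of the 10 clusters was given a cell type name. In clusters 0, 2, 4 and 9 alone, a subset chosen after seeing the data, the log2 ratio of Kcnh8 to other excitatory nuclei turned from 2.13 to -2.59, and that of Cntn6 was 1.73.

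**Figure D2:**
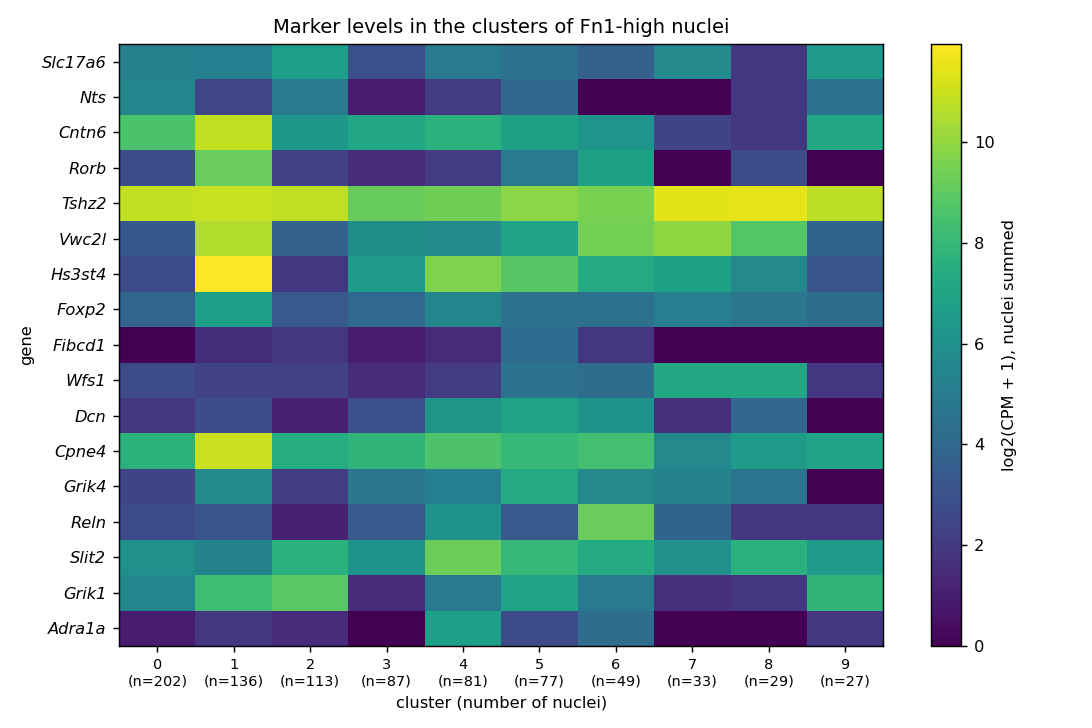
Level of marker genes in each of the 10 clusters of Fn1-high nuclei, as log2 of CPM + 1 of the summed nuclei on a colour scale, with the number of nuclei under each cluster. Nts is highest in cluster 0 and Hs3st4 in cluster 1.

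The clusters were unevenly spread over mice. Clusters 0, 2, 4 and 9 together held 42.2%, 52.9% and 68.6% of the members in the young mice and 29.2%, 57.5% and 40.0% in the old ad libitum mice. They held 78.9% and 51.9% under acute restriction (replicates 1 and 3) and 55.6%, 47.2%, 60.5% and 37.8% under long-term restriction. The ranges of the 4 groups overlapped. Differences between groups in summed members thus hold both the level within a type of nucleus and the mix of types, which cannot be told apart in a sum.

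**Figure D3:**
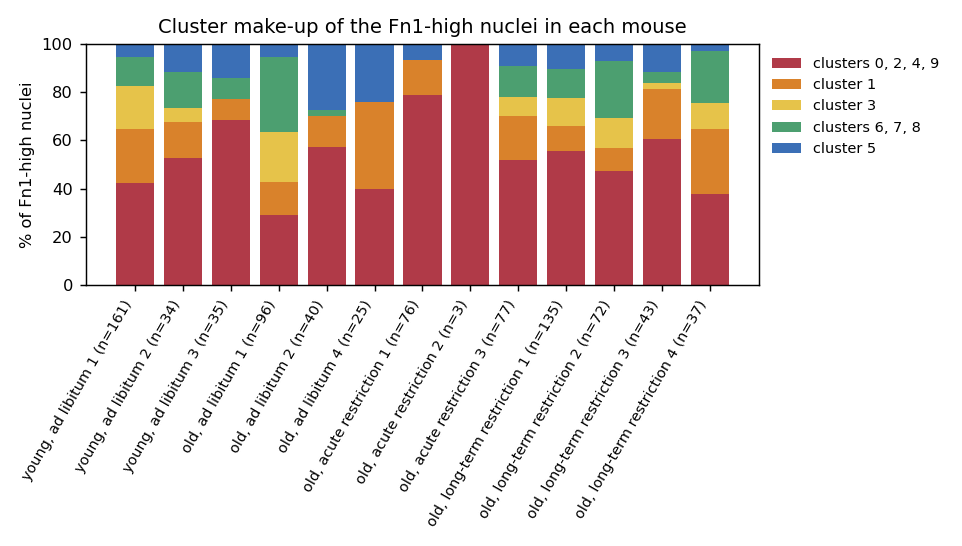
Percent of each library's Fn1-high nuclei in clusters 0, 2, 4 and 9 together, cluster 1, cluster 3, clusters 6 to 8 together and cluster 5, as stacked bars with the number of nuclei beside each name. The mix differs between mice of 1 group, with clusters 0, 2, 4 and 9 from 29.2% to 57.5% in old ad libitum mice, and acute restriction replicate 2 holds 3 nuclei only.

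The share of Fn1-high nuclei among nuclei passing the excitatory gate (25672 in all) was compared between groups. It was 5.85%, 1.55% and 1.99% in the young group and 10.96%, 1.71% and 1.65% in old ad libitum mice. It was 2.46%, 0.208% and 3.25% under acute and 5.02%, 3.42%, 3.53% and 2.79% under long-term restriction. Libraries numbered 1 lay between 2.46% and 10.96% and the others between 0.208% and 3.53%, so the spread within groups was wide. The old minus young difference was 0.29 in log2 odds (exact two-sided permutation p = 0.8, adjusted over 4 contrasts 0.943), and the long-term minus old ad libitum difference was 0.18 (p = 0.943, adjusted 0.943). The acute minus old ad libitum difference was -1.39 (exact permutation p = 0.6, adjusted 0.943) and the long-term minus acute difference 1.56 (p = 0.0571, adjusted 0.229). The smallest p possible before adjustment was 0.1 for 3 against 3 and 0.0286 for 4 against 3. After adjustment over the 4 contrasts none could fall below 0.05, so no share contrast could have passed. With all nuclei thinned to 4000 UMIs the shares fell within 0% to 1.43%, and the ageing difference turned to -0.97. It was -0.66 when old ad libitum replicate 1 was left out, and -0.10 when young replicate 2 was. The long-term difference was -0.29 and -0.30 without old ad libitum replicates 2 and 4, and 1.12 without replicate 1. The acute difference was -0.19 and the long-term minus acute difference 0.37 without acute restriction replicate 2.

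**Figure D4:**
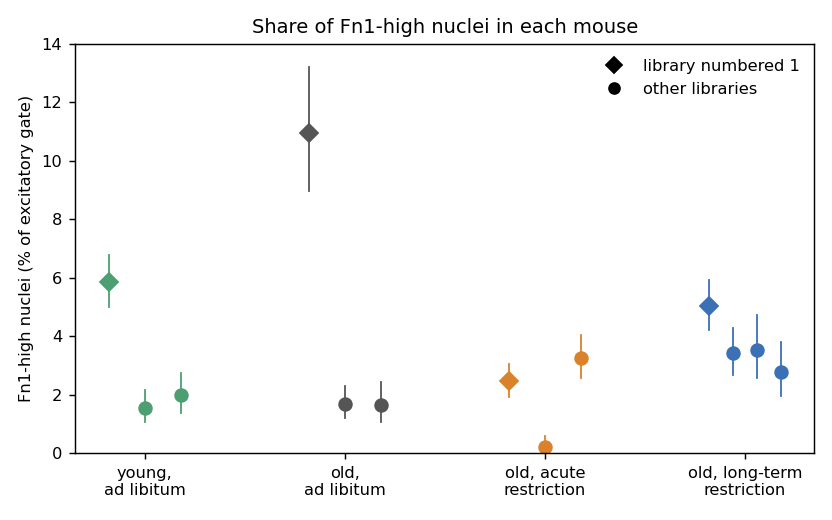
Fn1-high nuclei as a percent of excitatory-gate nuclei in each of the 13 libraries by group, with exact binomial 95% intervals as vertical lines and libraries numbered 1 as diamonds. Old ad libitum replicate 1 is highest at 10.96% and acute restriction replicate 2 lowest at 0.208%.

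The ageing contrast set the old against the young ad libitum mice, in UMIs summed over the Fn1-high nuclei of each mouse. Of 9268 genes, 0 passed an adjusted p of 0.05 (0.0%) in edgeR's quasi-likelihood test with Benjamini-Hochberg adjustment, 794 had an unadjusted p under 0.05, and DESeq2 called 5. Values did not overlap between the groups for 13.7% of genes, a share that depends on group sizes, as described for acute restriction below. Leaving out young replicate 1 gave 77 calls, 7 higher and 70 lower in old mice, and leaving out all libraries numbered 1 gave 148, 18 higher and 130 lower. With a term for the libraries numbered 1 in all mice the count stayed at 0. The genes nearest to passing, taken among those without overlap between the groups, are given as values.

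Crym, which encodes mu-crystallin, a thyroid hormone binding protein, stood at 6.38, 6.52 and 6.64 log2 CPM in young mice. It was at 5.55, 5.33 and 5.76 in old ad libitum mice. Old mice were below every young mouse, with a log2 difference of -0.99 (SE 0.20; edgeR quasi-likelihood, Benjamini-Hochberg adjusted p = 0.246). Under acute restriction Crym was at 5.97 and 6.28 and under long-term restriction at 6.02, 6.26, 6.29 and 6.09, all between the young and the old ad libitum values. The long-term minus old ad libitum difference was 0.65 (SE 0.19, adjusted p = 1.00 by the same edgeR test). Of all Crym UMIs in these nuclei 47.7% were in cluster 0, which held 23.0%, 41.2% and 40.0% of members in young and 17.7%, 5.0% and 24.0% in old ad libitum mice. Within cluster 0 Crym was at 179, 181 and 204 CPM in young, 134, 169 and 143 CPM in old ad libitum, 137 and 123 CPM in acute and 118, 174, 163 and 113 CPM in long-term restriction mice. The old ad libitum values rest on 17, 2 and 6 nuclei of cluster 0. They lay below the young values, and the restricted mice overlapped the old ad libitum mice there.

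Nts, the subicular peptide gene, was at 5.13, 4.27 and 5.12 log2 CPM in young and 3.64, 3.84 and 2.45 in old ad libitum mice. These levels did not overlap between the groups. The log2 difference of -1.60 (SE 0.43) had an adjusted p of 0.326 in edgeR's quasi-likelihood test with Benjamini-Hochberg adjustment. Counts were low, with 186 Nts UMIs over all members. The share of nuclei with an Nts UMI was 22.4%, 8.82% and 22.9% in young mice. It was 13.5%, 17.5% and 4.0% (of 25 nuclei) in old ad libitum mice, so these shares overlapped. Nts stood at 4.66 and 3.46 under acute and 4.34, 3.61, 3.81 and 3.65 under long-term restriction, which overlapped the old ad libitum values. Slc17a6 showed a difference of 0.09 (SE 0.63). As described above, 51.1% and 27.96% of Nts UMIs lay in clusters 0 and 2, and the share of clusters 0, 2, 4 and 9 together varied between mice.

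Ppm1h, a protein phosphatase gene, was at 7.24, 6.87 and 7.19 log2 CPM in young, 7.81, 7.90 and 7.98 in old ad libitum, 6.95 and 7.07 in acute and 7.31, 7.14, 7.42 and 7.37 in long-term restriction mice. The old ad libitum mice were the highest 3 of the 12. The log2 differences from edgeR were 0.76 with age (SE 0.16, Benjamini-Hochberg adjusted p = 0.246), -0.59 under long-term (adjusted p = 1.00) and -0.89 under acute restriction (adjusted p = 0.133). Camk1d, a calmodulin-dependent kinase gene, was at 8.18, 8.61 and 8.05 in young and 8.97, 8.96 and 8.998 in old ad libitum mice, a difference of 0.70. Under long-term restriction Camk1d was at 8.52, 8.403, 8.52 and 8.57, below the old ad libitum values, as the choice of named genes required. Both restriction contrasts and the ageing contrast share the old ad libitum mice, so their values are given side by side with no comparison of the contrasts. Further genes of smallest p with age were Cdc14a (1.94), Tnr (0.76) and Ajap1 (1.16) on the higher side and Gm28370 (-1.87), Lrrtm1 (-1.27), 1700030F04Rik (-1.32) and Dnaja2 (-1.02) on the lower side, with adjusted p-values of 0.246 to 0.304.

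The gene lists held 0 called genes with age. Over all 9268 genes the median log2 difference was -0.01, with 4532 above 0. Of 9 heat shock genes that passed the filter, 0 had a positive difference, 4 had an unadjusted p under 0.05 and the median was -0.69. Hspa8, a constitutive chaperone, was at 7.34, 6.30 and 5.51 log2 CPM in young and 6.09, 4.15 and 3.93 in old ad libitum mice, which overlapped. Hspa5, the chaperone of the endoplasmic reticulum, was at 6.12, 5.48 and 4.73 against 4.84, 4.01 and 3.58, which also overlapped. Of 15 oxidative phosphorylation genes, 1 had a positive difference and the median was -0.37. Cox7c, a subunit of cytochrome oxidase, was at 6.34, 6.52 and 6.47 against 5.62, 5.06 and 3.93 without overlap (-1.23, SE 0.30, adjusted p = 0.304 in edgeR with Benjamini-Hochberg adjustment).

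The channel and insulin lists leaned to positive differences. Of 20 channel genes 18 had a positive difference, 7 had an unadjusted p under 0.05, and the median was 0.34. Over all genes 48.9% had a positive difference and 8.57% an unadjusted p under 0.05. Differences with age also varied with gene span, the genomic length of a gene, as described below, and 16 of the 20 channel genes lay in the longest of 4 equal span bins. In that bin 74.5% of all genes had a positive difference and 14.8% an unadjusted p under 0.05. Kcnma1, the large-conductance calcium-activated potassium channel gene, was at 10.47, 10.44 and 10.46 log2 CPM in young and 10.95, 10.83 and 10.82 in old ad libitum mice. Cacna1d, an L-type calcium channel gene, was at 7.61, 7.57 and 7.08 against 8.10, 7.92 and 8.05. Neither gene's groups overlapped, and neither passed (adjusted p = 0.490 and 0.428 in edgeR with Benjamini-Hochberg adjustment). Of 18 insulin and nutrient signalling genes 16 had a positive difference (median 0.30), with Igf1r at 0.84 (SE 0.24) and Insr at 0.56 (SE 0.20), and 9 of the 18 lay in the longest span bin. In the other direction, 6 of the 9 heat shock genes and 11 of the 15 oxidative phosphorylation genes lay in the shortest bin, where 24.3% of all genes had a positive difference. Medians for the other lists were 0.49 for 4 neuronal matrix genes, 0.34 for 15 circadian clock genes, 0.21 for 6 fibronectin partners, 0.18 for 8 glucocorticoid response genes, 0.15 for 20 glutamate genes, 0.13 for 22 adhesion genes and 0.10 for 10 neuromodulator receptors. They were 0.03 for 11 sterol synthesis genes, -0.10 for 7 immediate early genes, -0.13 for 8 neuropeptide genes and -0.22 for 14 amyloid and tau genes.

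Gene span, measured from start to end in the annotation, ordered the ageing differences across genes. Over 9266 genes the Spearman correlation of span with the log2 difference was 0.43, given as a description across genes, since genes are no independent samples. It was 0.26 without young replicate 1, 0.28 without the libraries numbered 1 and 0.27 with median UMIs per nucleus as a covariate. The median difference was -0.29 in the shortest of 4 equal bins (median span 9.86 kb), -0.07 and 0.04 in the middle bins and 0.18 in the longest (median span 160 kb). The long-minus-short difference in log2 CPM within a mouse was 1.99, 2.12 and 2.18 in young and 2.40, 2.51 and 2.54 in old ad libitum mice, without overlap. It was 2.31 and 2.43 under acute and 2.46, 2.26, 2.78 and 2.50 under long-term restriction, which overlapped the old ad libitum mice. For long-term restriction the correlation was 0.01, and it was 0.12 without long-term restriction replicate 2 and -0.08 without long-term restriction replicate 3. For acute restriction it was -0.07, from -0.12 without old ad libitum replicate 1 to -0.01 without acute restriction replicate 1. For long-term against acute it was 0.11, from 0.01 without long-term restriction replicate 3 to 0.21 without long-term restriction replicate 2. Median UMIs per Fn1-high nucleus were 11075, 6570 and 8898 in young and 20440, 14822 and 11711 in old ad libitum mice, so that depth and age moved together. With the span trend removed 505 genes had an unadjusted p under 0.05 and 0 passed the adjustment.

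The contrast of long-term restriction set 4 restricted against 3 old ad libitum mice. In edgeR's quasi-likelihood test with Benjamini-Hochberg adjustment 0 of 9268 genes passed (0.0%), 276 had an unadjusted p under 0.05, and DESeq2 called 0. Groups did not overlap for 5.37% of genes. Leaving out the libraries numbered 1 gave 8 calls, 7 higher and 1 lower under restriction. The genes of smallest p on the higher side were Vezf1, a zinc finger transcription factor gene (1.23 on the log2 scale), Crym (0.65), Rnf214 (0.66), Hspa5 (0.99) and Tasor2 (0.54). Vezf1 was at 4.50, 4.85, 5.10 and 4.75 log2 CPM against 3.64, 3.66 and 3.93 in old ad libitum mice. Hspa5 was at 5.46, 5.44, 5.17 and 5.44 against 4.84, 4.01 and 3.58. For both genes every restricted mouse was above every old ad libitum mouse, as the choice of named genes required. On the lower side stood Ppm1h (-0.59), Gm46102 (-1.48), Rsrp1 (-0.75), Arhgap10 (-1.23) and Camk1d (-0.47). Adjusted p-values were 1.00 for all 10.

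No gene list held a call under long-term restriction, and the median difference of all genes was -0.01. List medians ran from -0.30 for 4 neuronal matrix genes, of which 0 had a positive difference, to 0.11 for 10 neuromodulator receptors. Heat shock genes had a median of -0.10 and oxidative phosphorylation genes 0.02. Insulin and nutrient signalling genes, a pathway that responds to feeding, had a median of -0.05, with 6 of 18 positive and 2 at an unadjusted p under 0.05. Over all 9268 genes 4538 were positive and 276 had an unadjusted p under 0.05.

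The contrast of acute restriction set 2 restricted against 3 old ad libitum mice. In edgeR's quasi-likelihood test with Benjamini-Hochberg adjustment 1 of 9268 genes passed (0.0108%), Cdc14a, which was lower. Unadjusted p-values under 0.05 numbered 450, groups did not overlap for 19.5% of genes, and DESeq2 called 8 genes, all lower. With 2 against 3 mice, 2 of the 10 possible divisions leave no overlap if values fall in random order. For the group sizes of ageing this holds for 2 of 20, for long-term restriction 2 of 35 and for long-term against acute 2 of 15. The shares without overlap are thus not compared between contrasts. Cdc14a (chr3:116272553-116424032 of mm10, minus strand) encodes a phosphatase that acts on proline-directed phosphorylation sites. It was at 5.49, 6.05 and 5.57 log2 CPM in old ad libitum mice (87, 37 and 14 UMIs) and at 2.11 and 3.62 under acute restriction (2 and 8 UMIs). Both restricted mice were below all 3 old ad libitum mice, a log2 difference of -3.08 (SE 0.46, edgeR with Benjamini-Hochberg adjusted p = 0.0161). Young mice stood at 4.07, 4.27 and 2.93 and long-term restriction mice at 5.06, 4.91, 5.10 and 5.30. Under long-term against acute restriction the difference was 2.42 (edgeR adjusted p = 0.356).

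Cdc14a passed in 17 of 26 alternatives. Among these 17 was every fit that left out only 1 young or only 1 long-term restriction mouse, groups outside this contrast. Cdc14a did not pass with the replicate number as a block, as described further below. It no longer passed without old ad libitum replicate 2 (adjusted p = 0.104) or without acute restriction replicate 1 (adjusted p = 1.00), both in edgeR with Benjamini-Hochberg adjustment. The same test gave adjusted p-values of 0.132 with median UMIs as a covariate, 0.392 without high Scrublet scores, 1.00 with at least 2 and 0.863 with at least 5 Fn1 UMIs. It gave 0.110 without the libraries numbered 1 and 0.0818 with the share of clusters 0, 2, 4 and 9 as a covariate. Over the alternatives its adjusted p ran from 0.0012 to 1.00 and its log2 difference from -4.47 to -2.05. Of its 295 UMIs 87.5% were in clusters 5, 7 and 8, which held 139 nuclei (16.7% of the members), and 0.678% in clusters 0, 2, 4 and 9. Within clusters 5, 7 and 8 it was at 118, 65.8 and 23.8 CPM in young, 168, 240 and 212 CPM in old ad libitum, 22.7 and 47.6 CPM in acute restriction and 105, 144, 179 and 189 CPM in long-term restriction mice. The acute restriction values within those clusters rest on 5 and 15 nuclei and remained below all old ad libitum values.

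**Figure D5:**
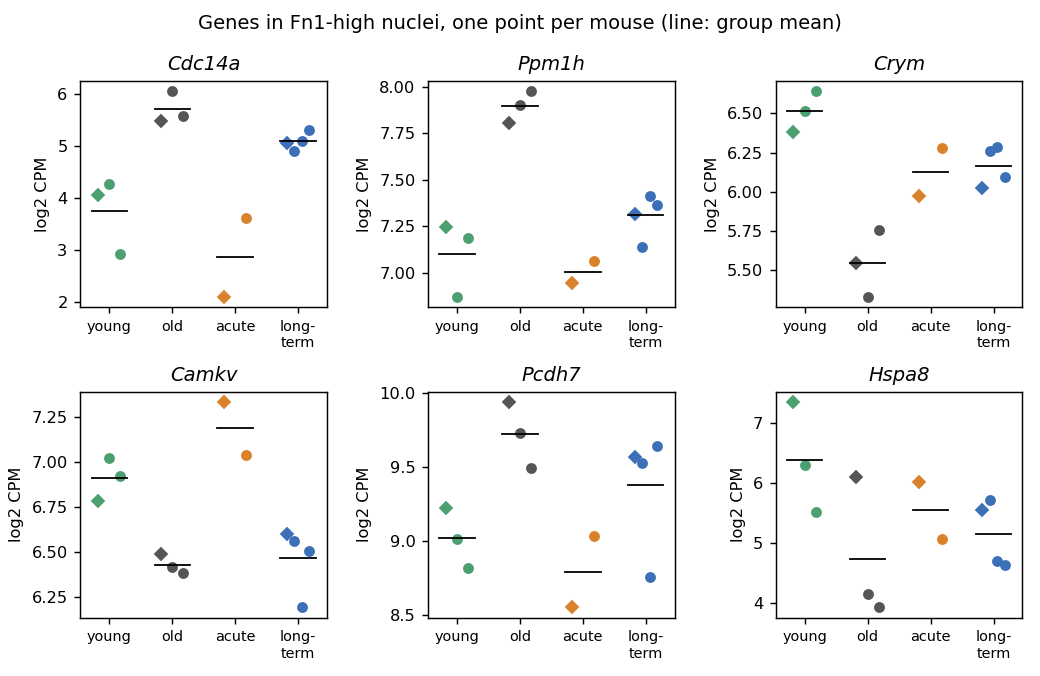
Log2 CPM of Cdc14a, Ppm1h, Crym, Camkv, Pcdh7 and Hspa8 in the summed Fn1-high nuclei of each of the 12 mice by group, with 1 point per mouse, diamonds for libraries numbered 1 and a line at the group mean. Cdc14a lies at 2.11 and 3.62 in the acute restriction mice and between 5.49 and 6.05 in old ad libitum mice.

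Other genes did not pass under acute restriction, and those named here were chosen among genes without overlap between the groups. Ppm1h has been given above. Pparg, a nuclear receptor gene of lipid metabolism, was at 4.08 and 4.395 log2 CPM against 6.26, 5.80 and 5.24 in old ad libitum mice (-1.82, SE 0.36, adjusted p = 0.133 in edgeR with Benjamini-Hochberg adjustment). The non-coding 4930467D21Rik (-3.28) had the same adjusted p, and Tmem164 (-2.26) one of 0.245. Camkv, a kinase-like gene of dendritic spines, was at 7.33 and 7.04 against 6.49, 6.41 and 6.38, and at 6.60, 6.56, 6.19 and 6.51 under long-term restriction. Acute restriction mice were thus above all other old mice for Camkv, by 0.77 over old ad libitum (adjusted p = 0.531 in edgeR with Benjamini-Hochberg adjustment). Nrip3 (0.87), Rnf2 (0.89), Smad4 (0.96) and Pou3f1 (1.12) followed. Gene lists held 0 calls. Medians ran from -0.25 for 11 sterol synthesis genes to 0.21 for 9 heat shock genes, against -0.01 over all genes, and channel genes had a median of -0.13 with 8 of 20 positive, against 4526 of 9268 over all genes.

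Long-term against acute restriction gave 0 calls of 9268 genes (0.0%) in edgeR's quasi-likelihood test with Benjamini-Hochberg adjustment, 297 genes at an unadjusted p under 0.05, and 1 call in DESeq2. Groups did not overlap for 12.1% of genes. Without acute restriction replicate 3 there were 3 calls, without long-term restriction replicate 1 there was 1, and without the libraries numbered 1 there were 2. The values nearest to passing were Cdc14a (2.42), Tmem164 (1.94), 6530403H02Rik (2.32), Ano3 (0.86) and Vmn2r85 (2.13) on the higher side. Peg3, an imprinted zinc finger gene (-0.74), Camkv (-0.72), Rnf2 (-0.74), Mitf (-0.61) and Camkk1 (-1.28) stood on the lower side. Adjusted p-values were 0.356 for Cdc14a and 0.900 to 1.00 for the others. Ano3, a calcium-regulated membrane protein gene of the channel list, was at 6.95, 6.88, 6.69 and 7.22 log2 CPM in long-term and 6.02 and 6.18 in acute restriction mice. Gene lists held 0 calls, with medians from -0.22 (8 glucocorticoid response genes) to 0.14 (11 sterol synthesis genes).

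To ask whether Fn1-high nuclei differed from CA1-type nuclei of the same mice, both sums were fitted together with mouse as a block. The difference between the 2 populations' contrasts was tested over 10737 genes. Of its 14 alternatives, 12 each left out 1 mouse, also mice of groups outside a contrast. The others used the ratio of median UMIs as a covariate or other excitatory nuclei in place of CA1-type. Doublets, glial UMIs, Fn1 thresholds, normalization, replicate number and cluster mix were not varied for these differences. For ageing 1 gene passed in edgeR with Benjamini-Hochberg adjustment (0.00931%), with 404 at an unadjusted p under 0.05. It was Slc1a3, the astrocyte glutamate transporter gene (difference 4.93, adjusted p = 0.00263). In Fn1-high nuclei it had 5, 0 and 1 UMIs in young and 103, 19 and 1 UMIs in old ad libitum mice, with young replicate 2 at 0. Cluster 6, which had 18 and 1 nuclei in the 2 old mice with most UMIs, held 97 of the 103 and 11 of the 19. Over all mice 13 of the 49 nuclei of cluster 6 (26.5%) had any Slc1a3 UMI, so the values rest on few nuclei. Outside cluster 6 Slc1a3 was at 2.98, 0 and 2.72 CPM in young and 3.82, 13.4 and 3.18 CPM in old ad libitum mice. The high values were thus those of 2 of 3 old mice, and most of their UMIs came from cluster 6. In CA1-type nuclei Slc1a3 was at 21.6, 11.99 and 11.3 CPM in young (29, 2 and 4 UMIs) and 3.57, 10.4 and 5.10 CPM in old ad libitum mice (4, 22 and 7 UMIs). These values were lower in old mice without overlap, so the difference between contrasts holds the values of both populations. The 6 astrocyte markers, which include Slc1a3, summed to 136 to 294 CPM in young and 269 to 555 CPM in old ad libitum Fn1-high nuclei, and their part in the difference was not tested. Slc1a3 no longer passed without young replicate 1 or with other excitatory nuclei in place of CA1-type. The count of genes was 0 without young replicate 1 and 7 with old ad libitum replicate 1 left out. It was 2 when either old ad libitum replicate 2 or long-term restriction replicate 3 was left out.

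For long-term restriction 2 genes passed (0.0186%), with 510 at an unadjusted p under 0.05. Pcdh7, a protocadherin adhesion gene, was at 932, 799 and 706 CPM in Fn1-high nuclei of old ad libitum mice and 701, 753, 399 and 784 CPM under long-term restriction. In CA1-type nuclei of the same mice it was at 302, 441 and 379 CPM and at 949, 651, 476 and 714 CPM. The CA1-type values did not overlap and were higher under restriction, while the Fn1-high values overlapped, and the difference between contrasts was -1.15 (adjusted p = 0.00869 in edgeR with Benjamini-Hochberg adjustment). Arhgap10, a gene of a GTPase-activating protein, was at 64.8, 127 and 137 CPM against 50.5, 49.9, 45.2 and 24.3 CPM in Fn1-high nuclei. In CA1-type nuclei it was at 12.5, 17.0 and 14.6 CPM against 25.3, 27.0, 16.8 and 27.3 CPM, and the difference was -1.89 (adjusted p = 0.0278 in edgeR with Benjamini-Hochberg adjustment). Pcdh7 passed in 11 of 14 alternatives and not without old ad libitum replicate 1, without long-term restriction replicate 1 or with other excitatory nuclei in place of CA1-type. Arhgap10 passed in 8 of 14 and not without any 1 of old ad libitum replicates 2 and 4 and long-term restriction replicates 1, 2 and 4, or with other excitatory nuclei. The count of genes was 1 without old ad libitum replicate 1, 6 without replicate 2, 4 without either acute restriction mouse, and 0, 1 and 9 without long-term restriction replicates 1, 2 and 3.

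For acute restriction 2 genes passed (0.0186%), with 713 at an unadjusted p under 0.05. Pcdh7 was at 356 and 516 CPM in Fn1-high nuclei of acute restriction mice, below the old ad libitum values, and at 568 and 815 CPM in CA1-type nuclei, above them. In the summed nuclei the groups stood in opposite order in the 2 populations, and the difference was -1.71 (adjusted p = 0.000135 in edgeR with Benjamini-Hochberg adjustment), which passed in 13 of 14 alternatives, the exception being other excitatory nuclei in place of CA1-type. Pcdh7 was at 1670 CPM in clusters 5, 7 and 8 and 301 CPM in clusters 0, 2, 4 and 9, and the latter held 29.2% to 57.5% of nuclei in old ad libitum and 51.9% and 78.9% in acute restriction mice. Within clusters, pooled over mice and with no test, Pcdh7 under acute restriction was not below old ad libitum in clusters 0 (111 against 48.2 CPM), 2 (378 against 320 CPM) and 4 (475 against 335 CPM). It was lower in clusters 1 (251 against 317 CPM), 3 (468 against 627 CPM) and 5 (608 against 1803 CPM, 12 and 22 nuclei). It was also lower in clusters 6 (691 against 1560 CPM, 2 and 19 nuclei), 7 (2357 against 2430 CPM) and 8 (1448 against 1797 CPM, 4 and 3 nuclei). Cluster 9 held no old ad libitum nuclei. The order in the sum thus held in some clusters and not in others. Ak5, an adenylate kinase gene, was at 286, 269 and 302 CPM in old ad libitum and 168 and 144 CPM in acute restriction mice. In CA1-type nuclei it was at 319, 597 and 557 CPM and at 596 and 748 CPM, and the difference was -1.29 (adjusted p = 0.0243 in edgeR with Benjamini-Hochberg adjustment). Ak5 also varied between clusters, at 113 CPM in clusters 0, 2, 4 and 9 and 364 CPM in clusters 5, 7 and 8. Pooled over mice, within clusters 0 and 2 it was at 88.9 and 24.8 CPM under acute restriction against 79.6 and 16.3 CPM in old ad libitum mice. It was also higher in clusters 7 (154 against 135 CPM) and 8 (223 against 61.3 CPM, 4 and 3 nuclei). It was lower in clusters 1 (73.6 against 142 CPM), 3 (268 against 466 CPM) and 4 (362 against 429 CPM). The same held in clusters 5 (370 against 610 CPM) and 6 (0 against 510 CPM, 2 and 19 nuclei). For both genes the part of the cluster mix in the difference was not tested. Ak5 passed in 10 of 14 alternatives and not without old ad libitum replicate 1, acute restriction replicate 3 or young replicate 1, or with the ratio of median UMIs as a covariate. The count of genes was 5, 48 and 4 without old ad libitum replicates 1, 2 and 4, 1 without young replicate 1 or acute restriction replicate 3, and 8, 7 and 4 without long-term restriction replicates 1, 3 and 4. For long-term against acute restriction 0 genes passed in edgeR, with 391 at an unadjusted p under 0.05, and DESeq2 was not run for these differences.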

How the data were processed

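UMI counts per gene and barcode, deposited by the authors for 32285 mouse genes in 13 libraries of sorted nuclei, were made with Cell Ranger 4.0.0 on mm10, per the submitters' processing notes; handling of introns, ambient RNA and doublets is not given in the sources used here. Nuclei were selected by the rule in the text; no doublets were removed, and a Scrublet alternative took out 7386 barcodes (7.01%), 34 of them Fn1-high. Counts were summed per mouse with at least 20 such nuclei and fitted in edgeR 4.0.16 (R 4.3.3; TMM factors, filterByExpr, robust quasi-likelihood, 4 groups in 1 fit, Benjamini-Hochberg over 9268 genes, threshold 0.05); log2 CPM used a prior count of 2. DESeq2 1.42.0 was an alternative. Reference populations had Fn1 at 0: CA1-type with at least 2 Fibcd1 UMIs and deep-layer-type with at least 3 Hs3st4 and 2 Foxp2 UMIs. Other excitatory nuclei were all excitatory-gate nuclei with Fn1 at 0, CA1-type and deep-layer-type nuclei included. Granule-type nuclei had at least 2 Prox1 UMIs. Some genes are not reported here. Clusters came from Leiden (leidenalg 0.10.2, scanpy 1.11.5, Python 3.11.15) on 2000 variable genes, 20 components, 15 neighbours and resolution 0.5. Shares were compared as log2 odds by exact permutation. The code was tested on simulated data.

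The members and gene lists were chosen with earlier results of these data known. Named genes were up to 5 higher and 5 lower of smallest p without overlap between groups in each contrast (fewer than 3 passed), 25 highest and 10 lowest ratios to other excitatory nuclei (among genes of at least 50 CPM), and members of the lists. A planned choice of genes most like Fn1 across populations was not used, because the gates fix Fn1 at 0 in 3 of the 7 populations. Alternatives covered filters, thresholds, normalization, doublets, depth, single libraries and the libraries numbered 1. For differences from CA1-type nuclei they covered only depth, the reference population and single libraries. Depth ranges are in the text; the number of nuclei per mouse (25 to 161 in the fits) limits precision.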

Additional observations from a re-analysis of the deposited data

Results flagged for a closer look

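Within groups of 4 samples, chance alone sets about 1 in 20 apart. Under long-term restriction, Arhgap10 stood at 4.75 log2 CPM in replicate 4, below the other 3 replicates, whose gap to it was large for the group's range. Hspa5 stood at 5.17 in replicate 3 of the same group, below the other 3, which lay together.

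The remaining results are contrasts that differed between Fn1-high and CA1-type nuclei of the same mice in edgeR's quasi-likelihood test. They are Slc1a3 with age (4.93 on the log2 scale), Pcdh7 under long-term (-1.15) and acute restriction (-1.71), Arhgap10 under long-term restriction (-1.89) and Ak5 under acute restriction (-1.29). The directions in Fn1-high nuclei were higher with age for Slc1a3 and lower under restriction for the others, by their fitted differences. With all 12 mice none of these passed within Fn1-high nuclei alone, and without the libraries numbered 1 Arhgap10 did (-1.68 on the log2 scale, edgeR Benjamini-Hochberg adjusted p = 0.0126).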

How the results depend on the processing

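In Fn1-high nuclei the count of genes past the adjusted threshold with age went from 0 to 5 with DESeq2, and, in alternatives added after seeing the data, to 148 without all libraries numbered 1 and 4 with the share of clusters 0, 2, 4 and 9 as a covariate. For long-term restriction the last pair gave 8 and 1. For acute restriction the count of 1 became 8 with DESeq2, 2 with a term for libraries numbered 1, and 0 with median UMIs as a covariate, with Fn1 thresholds of 2 or 5 UMIs, or without high Scrublet scores. For long-term against acute it became 1 with DESeq2 and 2 without libraries numbered 1. Leaving out 1 library at a time gave 0 to 77, 0 to 0, 0 to 2 and 0 to 3 genes in the order ageing, long-term, acute, long-term against acute. Differences from CA1-type nuclei gave 0 to 7, 0 to 9, 1 to 48 and 0 to 0 in that order, 2 for ageing with the UMI ratio as a covariate, and 6, 1, 24 and 0 against other excitatory nuclei. Where a fit left an arm with 1 sample, that sample was assumed to vary like the other groups. Shares differed by -0.66 to 0.88, -0.30 to 1.12, -2.09 to -0.19 and 0.37 to 2.26 log2 odds without 1 library; the ageing difference turned to -0.97 after thinning and -0.0619 without libraries numbered 1, and the long-term one to -0.28 with at least 5 Fn1 UMIs. The Kcnh8 ratio turned to -2.59 in clusters 0, 2, 4 and 9. The causes were not tested. None of the 40 contrast values of named genes reversed under the alternatives run.

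With the replicate number as a block, the 4 contrasts gave 0, 0, 0 and 0 calls, and Cdc14a under acute restriction had an edgeR adjusted p of 0.0975. Deviations of 13 same-numbered pairs correlated at -0.0679 to 0.314, with 6 above 0.1, of which 5 were among the 6 pairs of libraries numbered 1 (median 0.268). Among 40 differently numbered pairs 7 were above 0.1. Since not every same-numbered pair was, the numbers were not taken to pair the mice, though libraries numbered 1 deviated together in 5 of 6 pairs. Low counts limit most members' results to large differences, and Cdc14a rested on 10 UMIs in the acute restriction mice.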

Other observations

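Cd44, the hyaluronan receptor gene, was at 97.1 CPM in cluster 3 and 3.26 CPM in the remaining Fn1-high nuclei, beside Cemip, a gene of hyaluronan breakdown, at 314 and 14.7 CPM. Cluster 3 came from 8 mice. Cluster 7 (33 nuclei) held Wfs1, a gene common in CA1, at 148 against 11.8 CPM and Meis2 at 719 against 81.6 CPM. Cluster 8 held both at similar levels, Wfs1 at 141 against 13.4 CPM and Meis2 at 629 against 90.7 CPM. Cluster 5 (77 nuclei) held Dcn, the matrix proteoglycan decorin, at 119 against 19.7 CPM and Adarb2 at 272 against 30.6 CPM. Clusters differ by definition in such genes, so these are values only.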
